A study of Mus musculus with 12 samples.

Results

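The genes described here are the 9 members of the Hedgehog and PTHrP loop of the growth plate, Ihh, Ptch1, Smo, Gli1, Gli2, Gli3, Hhip, Pthlh and Pth1r. They were taken by name, through the Ensembl gene ID of each symbol, and all 9 were found among the 57010 gene IDs of the count tables. Their RNA was counted in 12 poly(A)-selected libraries of primary mouse chondrocytes, the cells that make cartilage matrix. The labels give the same genotype, wild type, for all 12, and divide them by treatment into 4 Control, 4 WT and 4 SIRT5F101L mutant libraries. By the treatment protocol WT and SIRT5F101L are plasmids transfected into the cells, and the 8 libraries so labelled are called plasmid libraries here by their labels alone. SIRT5, a sirtuin found mainly in mitochondria, strips malonyl, succinyl and glutaryl marks from lysine side chains, and F101L is an amino acid substitution in it. The treatment label WT was read as the wild-type plasmid. What the Control cells received, the age and number of the mice, and whether libraries came from separate cultures are not given, so the p-values below measure the spread between these libraries, which may be technical.

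In the growth plate, Indian hedgehog is secreted by chondrocytes that leave the proliferative pool. It binds the receptor Patched, which otherwise holds the membrane protein Smoothened inactive. Released Smoothened signals through the primary cilium to the GLI transcription factors, and Patched itself, Gli1 and the ligand trap Hhip are classical targets of that signal. Hedgehog signalling also sustains parathyroid hormone-related protein, encoded by Pthlh, in chondrocytes near the joint surface. That protein acts on its receptor, encoded by Pth1r, through cAMP and keeps chondrocytes proliferating, which delays hypertrophy and so the next cells that make Indian hedgehog.

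Against Control, 2 loop genes rose and 3 fell in both plasmid groups, where 56.8% of all tested genes were called in WT (28.7% rose, 28.1% fell) and 60.7% in SIRT5F101L (30% rose, 30.7% fell). Ptch1 and Hhip, the genes for the Hedgehog receptor and the Hedgehog-binding decoy, rose 1.98-fold and 4.63-fold in WT libraries and 2.35-fold and 5.50-fold in SIRT5F101L libraries. Hhip was near the floor of detection in Control, at 3 to 17 counts per library, and passed the filter on low counts only through the plasmid libraries, so it could be tested only because it was high there. Smo, Gli2 and Pth1r fell, with Control levels 1.92, 2.16 and 4.34 times those of WT and 1.95, 1.72 and 3.57 times those of SIRT5F101L. Gli3 did not pass the test in either comparison. Ihh, Pthlh and Gli1 were counted at most 9 times in any library and were too low to be tested.

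Because Ptch1 and Hhip were the members that rose, the 250 bases before a RefSeq start site of each are shown, from the mouse build GRCm38.p6. The Ptch1 window lies at chr13:63565736-63565985 and the Hhip window at chr8:80058009-80058258, both on the minus strand. Capitals mark matches, on either strand, to CCACCC, the core of the GLI binding sequence, and to TGACGTCA, the cAMP response element.
Ptch1: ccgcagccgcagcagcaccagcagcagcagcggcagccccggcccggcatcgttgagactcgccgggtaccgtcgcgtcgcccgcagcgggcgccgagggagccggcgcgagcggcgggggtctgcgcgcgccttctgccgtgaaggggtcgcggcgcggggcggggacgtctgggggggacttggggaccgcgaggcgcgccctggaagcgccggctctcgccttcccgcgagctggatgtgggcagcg
Hhip: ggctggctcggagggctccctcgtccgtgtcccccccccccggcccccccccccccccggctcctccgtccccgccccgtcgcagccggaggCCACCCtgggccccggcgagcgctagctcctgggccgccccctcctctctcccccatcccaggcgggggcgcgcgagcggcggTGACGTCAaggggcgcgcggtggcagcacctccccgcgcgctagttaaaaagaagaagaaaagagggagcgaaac

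The Hhip window held 1 GLI core, beginning 158 bases before the start site, and 1 cAMP response element, beginning 75 bases before it. The Ptch1 window held neither. The longer GLI consensus GACCACCCA, which contains the core, was found in no window of the 8 members that the RefSeq table lists. Over all 32851 windows of that length, 28.1% held the core, 0.225% the consensus and 1.55% the cAMP response element. Cores were also present in the windows of Ihh, Smo, Gli2, Gli3 and Pthlh, and none of the 3 windows of Pth1r held either motif. These matches describe the letters only.

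The libraries held 15095357 to 24242139 counts. Between libraries of a group, the median chi-square over genes was 2.55 to 8.92 times that of sampling noise. Between libraries of different groups it was 2.61 to 35.9 times, a range that overlaps the former, and no 2 libraries were identical. Of 14253 genes tested by edgeR (quasi-likelihood F-test, Benjamini-Hochberg adjusted p under 0.05), 56.8% differed between WT and Control, 60.7% between SIRT5F101L and Control and 0.0421% between SIRT5F101L and WT. Against Control, 28.7% of tested genes rose and 28.1% fell in WT, and 30% rose and 30.7% fell in SIRT5F101L, the shares beside which the counts of every list stand. Sirt5 itself had 1 to 19 counts per library and did not pass the test in any comparison, with log2 fold changes of -0.86 in WT and 0.03 in SIRT5F101L against Control and 0.90 between the plasmids (edgeR adjusted p 0.143, 0.954 and 0.460). Sirt5 RNA was thus not shown to be raised in either group labelled with a plasmid and does not bear those labels out, and whether a plasmid transcript would be counted under this gene is not given. SIRT5F101L replicate 1 stood apart from the other 3 of its group, at 20.3 on the second principal component against -23.5 to -17.0. On that component it lay beside WT replicates 2, 3 and 4, at 12.5 to 20.1, with WT replicate 1 at -1.07. Its counts also depended differently on transcript length: the slope of log2 CPM (counts scaled to equal library size with TMM) per log2 of length was -0.0588, where the others had 0.0809 to 0.103. All 2414 X-linked, 1547 Y-linked and 37 mitochondrial IDs were listed at 0 in every library, as were 23324 of 48031 autosomal IDs, so a gene listed at 0 is not shown to be unexpressed. The 9 members are autosomal.

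Marker genes of the chondrocyte itself and of some other cell types differed between Control and plasmid libraries. Of 14 chondrocyte markers, 12 fell in each plasmid group, while Acan rose in WT (0.47) and Hapln1 in both (0.25 and 0.18), and the summed level of all 14 went from 9340 to 11710 CPM in Control to 2855 to 2969 in WT and 2324 to 2569 in SIRT5F101L. Of 11 macrophage and leukocyte markers, 10 were tested, of which 9 fell and Cd14 rose in each plasmid group. Their sum was 202 to 238 CPM in Control, 136 to 157 in WT and 146 to 187 in SIRT5F101L, and Itgam was listed at 0 throughout. Of 10 fibroblast and perichondrium markers 9 fell and Pdgfra rose, with sums of 31900 to 38210, 10570 to 12040 and 10210 to 11680 CPM. Of 6 osteoblast markers 3 were tested, of which 1 rose and 2 fell in each plasmid group. Ibsp, 1 of those that fell, passed the filter only through Control. The osteoblast sums were 20.7 to 26.7, 8.02 to 9.92 and 7.004 to 10.8 CPM, with Phex, which is X-linked, listed at 0. Of 6 endothelial markers 5 were tested, of which 1 rose and none fell in each plasmid group, and their sum was at most 9.98 CPM in any library. Of 5 synovial and articular surface markers, 2 rose and 2 fell in each plasmid group, with median log2 fold changes of 0.02 and 0.08. Their sums were 1191 to 1469, 1542 to 1811 and 1697 to 1922 CPM. In bulk RNA, fewer cells of a type and less RNA per cell cannot be told apart, and the part of these shifts in the results below was not tested.

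**Figure D1:**
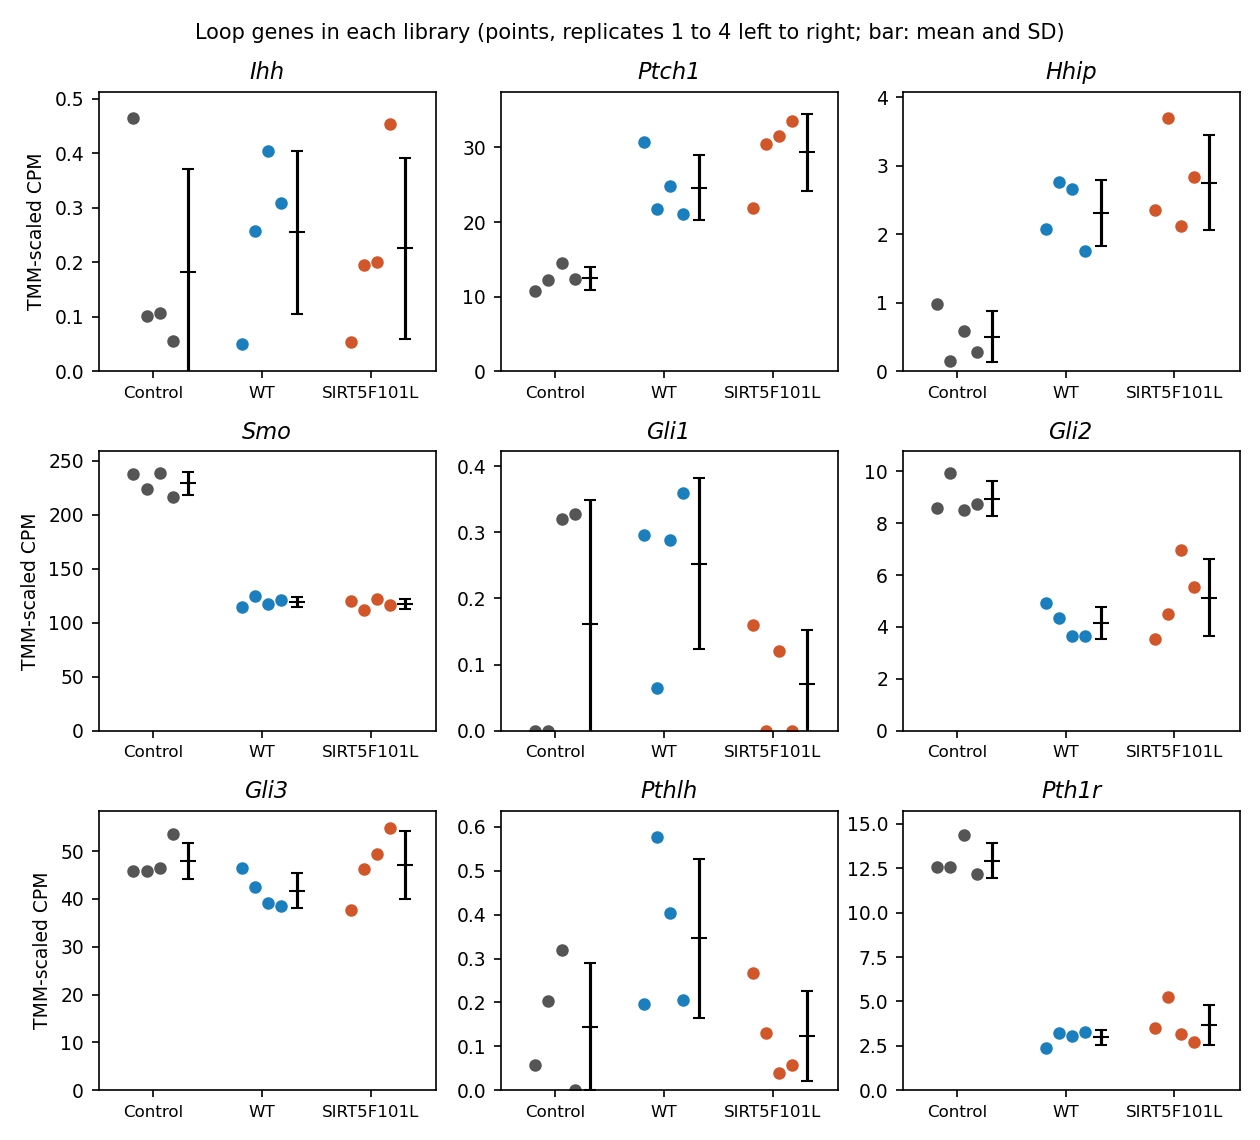
TMM-scaled CPM (vertical axis, from 0) of the 9 loop genes in each of 12 libraries, by group, with the mean and SD over 4 libraries beside the points. Ptch1 and Hhip lie higher, and Smo, Gli2 and Pth1r lower, in all 8 plasmid libraries than in any Control library, while Ihh, Gli1 and Pthlh reach at most 0.577 CPM.

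The ligands were at the floor of detection, taken as 3 counts, which is 0.124 to 0.199 CPM depending on the library. Ihh (ENSMUSG00000006538), the Hedgehog ligand of the growth plate, was counted 8, 2, 2 and 1 times in Control replicates 1 to 4, and 1, 4, 7 and 6 in WT, and 1, 3, 5 and 8 in SIRT5F101L. Pthlh (ENSMUSG00000048776) was counted 1, 4, 6 and 0 times in Control, 4, 9, 7 and 4 in WT, and 5, 2, 1 and 1 in SIRT5F101L. The groups overlapped for both genes, and counts this low carry no order. Without the filter on low counts, the edgeR adjusted p against Control was 0.719 for Ihh and 0.321 for Pthlh in WT, and 0.831 and 0.875 in SIRT5F101L. A difference in ligand RNA was thus not detectable at this depth.

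Dhh (Desert hedgehog) was counted 0 to 8 times per library, and Shh (Sonic hedgehog) was listed at 0 in all 12. Of 10 genes in the list of other ligands and of genes that release or retain them, 7 were tested, and 2 rose and 2 fell in each plasmid group, with a median log2 fold change of -0.08 in WT and -0.18 in SIRT5F101L, against -0.01 and -0.02 over all tested genes. Sulf1, which trims sulfate from heparan sulfate, rose from 342 ± 33.9 CPM (SD, n = 4) to 806 ± 32.4 and 843 ± 26.3, log2 fold changes of 1.24 (edgeR, SE 0.07, adjusted p 3.56e-12) and 1.30 (edgeR, SE 0.07, adjusted p 1.50e-12). Ext1, a heparan sulfate polymerase, rose by 0.41 and 0.55 on the log2 scale. Scube1, a secreted relative of a factor that aids ligand release, had log2 fold changes of -1.94 and -2.04. Disp1, the transporter that exports Hedgehog, was at -0.53 and -0.64, so both fell.

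At the receptor, Ptch1 (ENSMUSG00000021466) was the most abundant of the loop genes that rose. It measured 10.7, 12.2, 14.5 and 12.3 CPM in Control replicates 1 to 4, 30.7, 21.7, 24.9 and 21.1 in WT, and 21.9, 30.4, 31.5 and 33.6 in SIRT5F101L. Every plasmid library was above every Control library. Its log2 fold change was 0.98 (edgeR, SE 0.14, adjusted p 4.56e-06) in WT and 1.23 (edgeR, SE 0.14, adjusted p 1.83e-07) in SIRT5F101L.

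Hhip (ENSMUSG00000064325), a membrane and secreted protein that sequesters Hedgehog ligand, had 17, 3, 11 and 5 counts in Control, 42, 43, 46 and 34 in WT, and 44, 57, 53 and 50 in SIRT5F101L. In CPM this was 0.4997 ± 0.373 (SD, n = 4), 2.31 ± 0.481 and 2.75 ± 0.699, and again no plasmid library overlapped with Control. This gave a log2 fold change of 2.21 (edgeR, SE 0.38, adjusted p 5.18e-05) in WT and 2.46 (edgeR, SE 0.37, adjusted p 1.13e-05) in SIRT5F101L. Hhip entered the test through the plasmid libraries, since 2 of 4 Control libraries reached the filter's 0.531 CPM where 4 libraries are needed. Its RNA was the lowest of the tested members in every group.

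Smo (ENSMUSG00000001761), the signal transducer that Patched restrains, was the most abundant member. It measured 238, 224, 239 and 217 CPM in Control, 115, 125, 117 and 121 in WT, and 120, 111, 122 and 117 in SIRT5F101L. The plasmid libraries lay close together and well below Control. In edgeR the log2 difference was -0.94 (edgeR, SE 0.06, adjusted p 1.73e-11) in WT and -0.96 (edgeR, SE 0.06, adjusted p 1.11e-11) in SIRT5F101L.

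Scaled by the length of the longest transcript, the Ptch1 level was 1.20 ± 0.148 CPM per kilobase (SD, n = 4) in Control and the Smo level 60.7 ± 2.83. Within a library, the ratio of the length-scaled Ptch1 level to that of Smo was 0.0165 to 0.0221 in Control, 0.0633 to 0.0975 in WT and 0.0661 to 0.105 in SIRT5F101L. Smo thus remained the more abundant of the pair in all 12 libraries, and the ratio did not overlap between Control and either plasmid group. The ratio combines a member that rose with one that fell, so it adds no separate test.

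The co-receptors that help Patched bind ligand were lower with either plasmid. Gas1, a lipid-anchored co-receptor, measured 1005 to 1041 CPM in Control, 230 to 251 in WT and 226 to 270 in SIRT5F101L, a log2 fold change of -2.09 in each comparison (edgeR, SE 0.06, adjusted p 2.43e-16 and 2.33e-16). Boc fell from 157 ± 8.46 CPM (SD, n = 4) to 66.3 ± 2.98 and 66.8 ± 3.33 (-1.24 and -1.23, edgeR adjusted p 7.27e-13 and 7.76e-13). Cdon, its close relative, fell by less, at -0.38 (edgeR adjusted p 0.000306) in WT and -0.19 (edgeR adjusted p 0.0382) in SIRT5F101L, and its libraries overlapped with Control in the latter. Of 9 genes in the list of Hedgehog reception, 8 were tested. In each plasmid group 5 of these fell, none rose in WT and 1 rose in SIRT5F101L. The list medians were -0.28 and -0.24. Antisense exons overlap 19.9% of the Gas1 exon sequence, and since the strand setting of the counting is not given, its counts are uncertain to that extent.

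**Figure D2:**
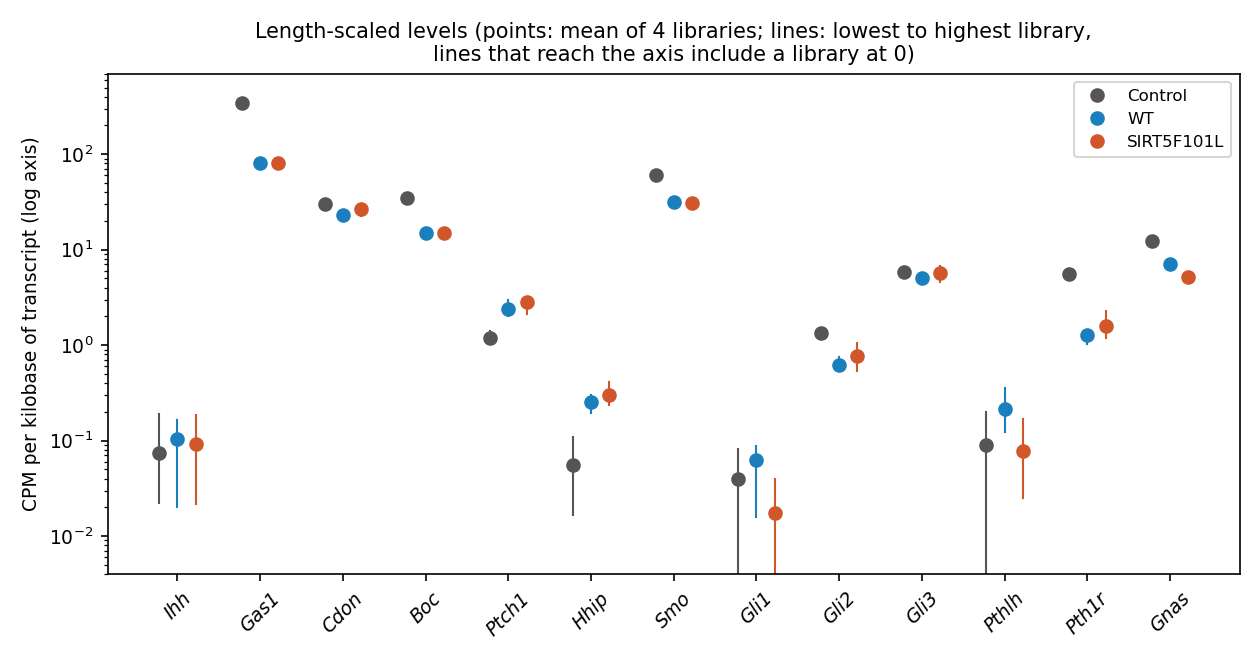
Level per length (CPM per kilobase of the longest transcript, log axis) of the loop genes, the 3 co-receptors and Gnas, with points for group means and lines from the lowest to the highest of 4 libraries. Gas1, Boc, Smo, Gli2, Pth1r and Gnas are lower, and Ptch1 and Hhip higher, in both plasmid groups, and the ligands and Gli1 lie lowest in WT and SIRT5F101L.

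Among the transcription factors, Gli1 (ENSMUSG00000025407), an activator whose own transcription is a classical readout of Hedgehog signalling, was nearly absent. It had 0, 0, 6 and 6 counts in Control, 6, 1, 5 and 7 in WT, and 3, 0, 3 and 0 in SIRT5F101L. The groups overlapped, and without the filter its edgeR adjusted p was 0.640 for WT and 0.464 for SIRT5F101L against Control. No rise of Gli1 beside that of Ptch1 and Hhip was detectable at this depth.

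Gli2 (ENSMUSG00000048402), the main activator among the GLI proteins, measured 8.60, 9.94, 8.52 and 8.74 CPM in Control, 4.93, 4.36, 3.64 and 3.65 in WT, and 3.53, 4.48, 6.98 and 5.55 in SIRT5F101L. All plasmid libraries were below all Control libraries, and SIRT5F101L libraries were the more spread. The log2 fold change was -1.11 (edgeR, SE 0.18, adjusted p 2.20e-05) in WT and -0.79 (edgeR, SE 0.17, adjusted p 0.000561) in SIRT5F101L.

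Gli3 (ENSMUSG00000021318), which acts mainly as a repressor when Hedgehog is absent, measured 45.9, 45.8, 46.6 and 53.6 CPM in Control, 46.5, 42.5, 39.2 and 38.5 in WT, and 37.7, 46.3, 49.4 and 54.8 in SIRT5F101L. Both plasmid groups overlapped with Control. Its log2 fold change was -0.20 (edgeR, SE 0.10, adjusted p 0.0832, 95% interval -0.40 to 0.00) in WT and -0.03 (edgeR, SE 0.10, adjusted p 0.825, 95% interval -0.23 to 0.17) in SIRT5F101L. With each library's trend on transcript length removed, these became -0.35 (edgeR adjusted p 9.59e-05) and -0.29 (edgeR adjusted p 0.000726), so Gli3 was then called in both. In WT it was also called with upper-quartile scaling, from the 8 libraries compared alone, without WT replicate 1 and without SIRT5F101L replicate 1, at -0.26 to -0.19.

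The length-scaled ratio of Gli3 to Gli2 was 3.75 to 4.98 in Control, 7.65 to 8.76 in WT and 5.75 to 8.69 in SIRT5F101L. In every library Gli3 was thus the most abundant of the 3 GLI genes per length, and the ratio did not overlap between Control and the plasmid groups. This ratio repeats the fall of Gli2 given above, so it adds no separate test. In the order of length-scaled Control means, Smo stood first, followed by Gli3 at 5.87 ± 0.461 and Pth1r at 5.60 ± 0.429 CPM per kilobase (SD, n = 4), which differ by less than their SD. Gli2 at 1.35 ± 0.100 and Ptch1 at 1.20 ± 0.148 also lay close together. Pthlh, Ihh, Hhip and Gli1, at 0.0905, 0.0737, 0.0551 and 0.0399, were not separable at these counts. In WT the order changed to Smo, Gli3, Ptch1 at 2.37 ± 0.422, Pth1r at 1.29 ± 0.182 and Gli2 at 0.625 ± 0.0940, and in SIRT5F101L it was the same, with Ptch1 at 2.82 ± 0.495, Pth1r at 1.59 ± 0.483 and Gli2 at 0.774 ± 0.223.

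Genes that process or restrain the GLI proteins were called in both directions. Of 14 listed and tested, 2 rose and 4 fell in WT, and 3 rose and 3 fell in SIRT5F101L, with medians of -0.06 and 0.04. Spop, an adaptor for degradation of GLI proteins, rose by 0.51 and 0.55 on the log2 scale (edgeR adjusted p 2.54e-07 and 7.73e-08). Kif7, the kinesin that places GLI proteins at the tip of the cilium, fell, at -0.78 and -1.14 (edgeR adjusted p 3.22e-05 and 3.23e-07), and shares 20.3% of its exon sequence with antisense genes. Sufu, the main cytoplasmic inhibitor, rose by 0.25 and 0.22 (edgeR adjusted p 0.0124 and 0.0281).

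Of 17 genes for transport in the primary cilium, all tested, 2 rose and 10 fell in WT and 3 rose and 7 fell in SIRT5F101L. The medians were -0.26 and -0.12. Ift27, a small GTPase of the intraflagellar transport particle, was at -0.84 and -0.83 (edgeR adjusted p 2.84e-07 and 2.90e-07), and Bbs1, of the cargo coat, at -0.79 and -0.93 (edgeR adjusted p 5.60e-06 and 6.43e-07). Kif3b, a motor subunit, rose by 0.42 and 0.47.

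Other genes known as Hedgehog targets went both ways. Of 12 listed 10 were tested, and 6 rose and 2 fell in each plasmid group, with medians of 0.55 and 0.46. Ccnd1 (cyclin D1) rose from 273 ± 19.5 CPM (SD, n = 4) to 544 ± 15.0 and 565 ± 34.1, log2 fold changes of 0.995 and 1.05 (edgeR adjusted p 3.47e-11 and 1.39e-11). Foxl1 (1.24 and 1.28), Bcl2 (1.03 and 1.32), Cdk6, Sfrp1 and Foxf1 rose too. Foxc1 fell, at -0.52 and -0.64 (edgeR adjusted p 6.09e-08 and 2.66e-09), as did Ccnd2 (-0.41 and -0.32). All of these genes answer to other signals as well, and 23.4% of Ccnd1 exon sequence is shared with an antisense gene.

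**Figure D3:**
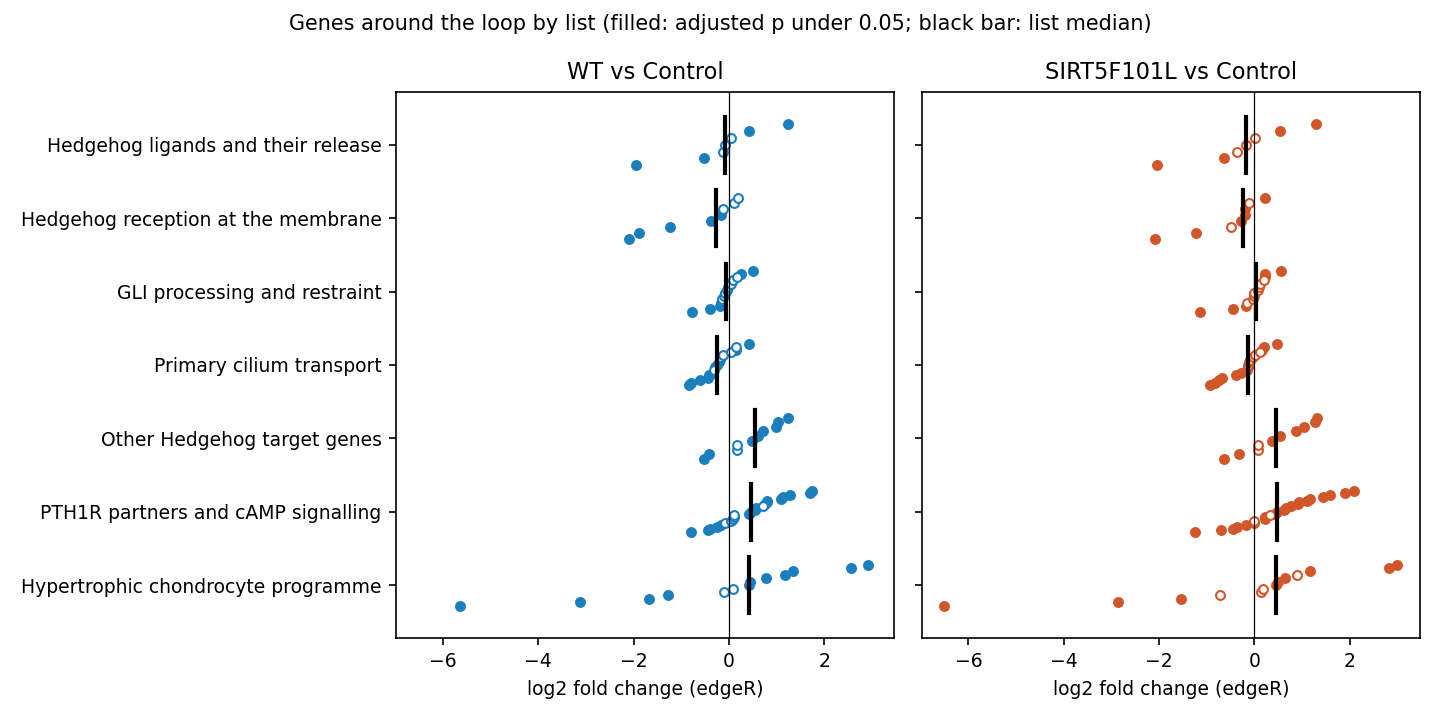
Log2 fold change (horizontal axis, edgeR) of each tested gene in 7 lists around the loop, for WT and SIRT5F101L against Control, filled where the adjusted p was under 0.05, with a black bar at each list's median. Medians run from -0.28 to 0.55 in WT and from -0.24 to 0.48 in SIRT5F101L, and single genes such as Gas1 and Ibsp lie far below their lists. Ibsp passed the filter on low counts only through Control, where it was high.

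On the PTHrP arm, Pth1r (ENSMUSG00000032492), the receptor shared by parathyroid hormone and PTHrP, showed the largest fall among the members. It had 216, 248, 270 and 223 counts in Control, 48, 50, 53 and 64 in WT, and 65, 81, 79 and 48 in SIRT5F101L. These are 12.2 to 14.4 CPM in Control, 2.37 to 3.29 in WT and 2.72 to 5.26 in SIRT5F101L, with a wide gap between Control and the rest. This gave a log2 fold change of -2.12 (edgeR, SE 0.17, adjusted p 1.63e-09) in WT and -1.84 (edgeR, SE 0.17, adjusted p 8.82e-09) in SIRT5F101L. The chondrocyte markers given above had median log2 fold changes of -1.90 and -2.57 in the same comparisons, and their part in this fall was not tested.

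The receptor's signalling partners were tested as a list of 25, of which 23 passed the filter. In WT 12 rose and 5 fell, and in SIRT5F101L 15 rose and 5 fell, with medians of 0.47 and 0.48. Gnas, the stimulatory G protein that links the receptor to cAMP, fell from 47.2 to 52.2 CPM in Control to 26.2 to 29.7 in WT and 20.2 to 21.7 in SIRT5F101L. Its log2 fold changes were -0.80 (edgeR, SE 0.07, adjusted p 4.61e-09) and -1.25 (edgeR, SE 0.07, adjusted p 5.40e-12). The 2 listed genes that degrade cAMP rose. Pde4b went from 12.6 ± 1.42 CPM (SD, n = 4) to 41.3 ± 1.71 and 47.3 ± 4.85 (1.71 and 1.90, edgeR adjusted p 3.28e-12 and 5.11e-13), and Pde4d had log2 fold changes of 1.75 and 2.10.

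Genes that make or carry the cAMP signal went both ways. Adcy7, an adenylyl cyclase, rose by 1.10 in both comparisons (edgeR adjusted p 2.47e-10 and 2.34e-10), and Prkar2a, a regulatory subunit of protein kinase A, at 1.13 and 1.16. Hdac4, which holds back hypertrophy downstream of PTHrP by binding MEF2 and RUNX2, rose by 1.28 and 1.44. Prkaca, a catalytic subunit of the kinase, fell (-0.39 and -0.44). Calls over all tested genes went both ways too, with 28.7% higher and 28.1% lower in WT, and 30% and 30.7% in SIRT5F101L. Pth and Pth2, other ligands of this receptor family, were listed at 0 in all 12 libraries. Antisense exons overlap 21.97% of Gnas and 22.4% of Hdac4 exon sequence.

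The hypertrophic programme that the loop controls was read from 16 genes, of which 13 were tested. In WT 7 rose and 4 fell, and in SIRT5F101L 6 rose and 3 fell, with medians of 0.42 and 0.46. Those that fell include Ibsp, which passed the filter through Control alone. Spp1 (osteopontin) rose by 2.91 and 2.99 on the log2 scale and Mmp13, a collagenase, by 2.56 and 2.82, all with an edgeR adjusted p of at most 1.67e-16. Both are also made by cells in inflammation, and 18.8% of Spp1 exon sequence is shared with another gene on the same strand. Ibsp (bone sialoprotein) fell most in this list, from 10.6 to 17.3 CPM in Control to 0.173 to 0.360 in WT and 0 to 0.214 in SIRT5F101L, where it had 0 to 5 counts per library. Its plasmid libraries all lay below the filter's 0.531 CPM, so Ibsp could be tested only because it was high in Control. Dlx5 fell, at -3.12 and -2.86, and Sp7, which drives osteoblast differentiation, at -1.68 and -1.53. Runx2 did not pass in either comparison (-0.11 and 0.13). Col10a1, the collagen that defines hypertrophic chondrocytes, and Dlx6 were listed at 0 in all 12 libraries, which does not show that they were unexpressed.

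Over the whole loop, 6 of 9 members passed the filter, Hhip only through the plasmid libraries. In WT 2 rose and 3 fell, where 28.7% and 28.1% of all tested genes did, and in SIRT5F101L 2 rose and 3 fell, where 30% and 30.7% did. Control and plasmid libraries did not overlap for the same 5 genes in either comparison, as for 53.5% of tested genes in WT and 51.3% in SIRT5F101L. Both comparisons share the Control libraries, so their likeness is not an independent repeat.

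**Figure D4:**
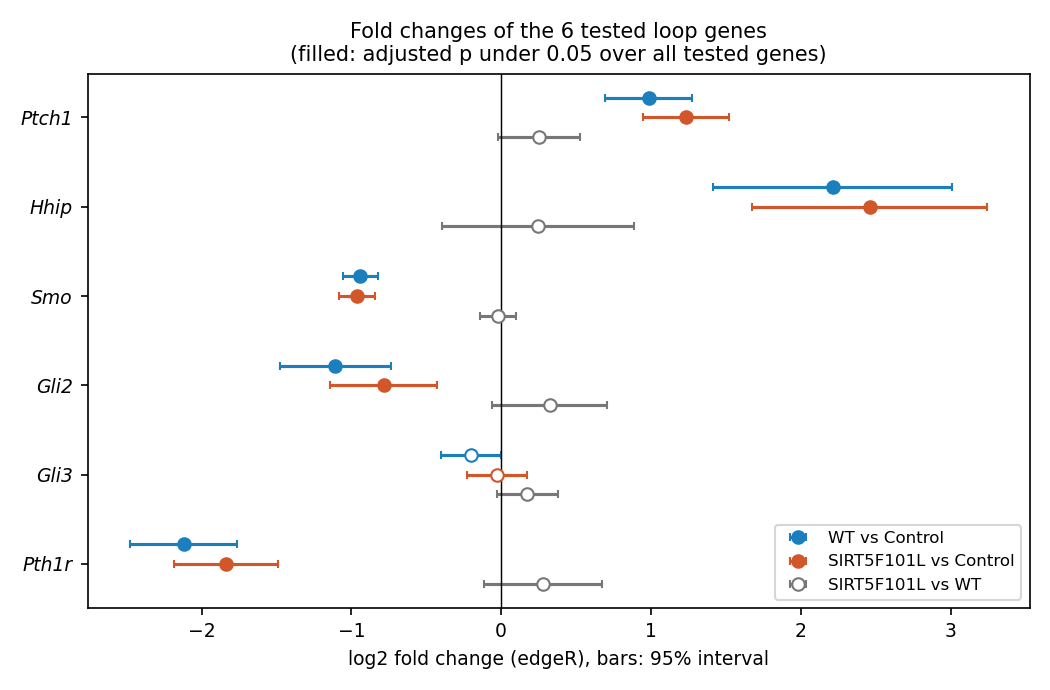
Log2 fold change (horizontal axis, edgeR) with its 95% interval for the 6 tested loop genes in 3 comparisons, filled where the adjusted p was under 0.05. The intervals against Control lie off 0 for Ptch1, Hhip, Smo, Gli2 and Pth1r, and those of SIRT5F101L against WT include 0 for all 6 genes.

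The libraries labelled SIRT5F101L were also set directly against those labelled WT. None of the 6 tested members was called, where 0.0421% of all tested genes were by edgeR and 11.9% had an unadjusted p under 0.05. No member had an unadjusted p under 0.05, and DESeq2 called none either. For each of the 6, SIRT5F101L and WT libraries overlapped, where 4.02% of all tested genes had no overlap. The log2 fold change of Smo was -0.02 (95% interval -0.14 to 0.10), a narrow range. That of Ptch1 was 0.25 (-0.02 to 0.52), of Gli3 0.17 (-0.03 to 0.38), of Gli2 0.32 (-0.06 to 0.71), of Pth1r 0.28 (-0.11 to 0.67) and of Hhip 0.25 (-0.39 to 0.89). A p that misses the threshold does not show that the plasmids act alike. Of the listed genes around the loop, Gnas was lower in SIRT5F101L than in WT (-0.45, SE 0.07, edgeR adjusted p 0.0339), with no overlap between the groups. Leaving out each of the 12 libraries in turn, the Gnas difference ran from -0.48 to -0.42, and it was called in 2 of the 12 fits, without Control replicate 2 or without SIRT5F101L replicate 1 (edgeR adjusted p over all 12 fits 0.000135 to 0.241).

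Ptch1 and Gli3 were not called between the plasmids in the reported fit, and were called only when SIRT5F101L replicate 1 was left out. Without it Ptch1 differed by 0.37 (edgeR adjusted p 0.0177) and Gli3 by 0.27 (edgeR adjusted p 0.0200), where 15.2% of all tested genes were then called. The remaining SIRT5F101L libraries had length slopes of 0.0809 to 0.103, and WT libraries -0.0361 to 0.0521. With the length trend removed as well, a setting chosen after the data were seen, the differences were 0.17 (edgeR adjusted p 0.318) and 0.10 (edgeR adjusted p 0.455), where 8.17% of genes were called.

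Ptch1 is the longest member, at 10383 bases in its longest annotated transcript. SIRT5F101L replicate 1, whose slope lay within the Control range of -0.0661 to -0.0439, had 21.9 CPM of Ptch1, where the other 3 SIRT5F101L libraries had 30.4 to 33.6 and Control libraries 10.7 to 14.5. WT replicate 1, with the highest slope of its group (0.0521), had 30.7 CPM, where the other 3 WT libraries had 21.1 to 24.9. Hhip, at 9074 bases, measured 2.07 CPM in WT replicate 1, where the rest of WT had 1.75 to 2.76. In SIRT5F101L replicate 1 it measured 2.35 CPM, where the rest of that group had 2.13 to 3.70. The part of transcript length in these levels was not tested. With the length trend removed in all libraries, the Ptch1 difference from Control was 0.82 (edgeR adjusted p 2.74e-07) in WT and 0.94 (edgeR adjusted p 2.30e-08) in SIRT5F101L. The same fit gave 2.06 and 2.19 for Hhip, -0.99 and -1.03 for Smo, -1.25 and -1.01 for Gli2, and -2.06 and -1.75 for Pth1r.

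**Figure D5:**
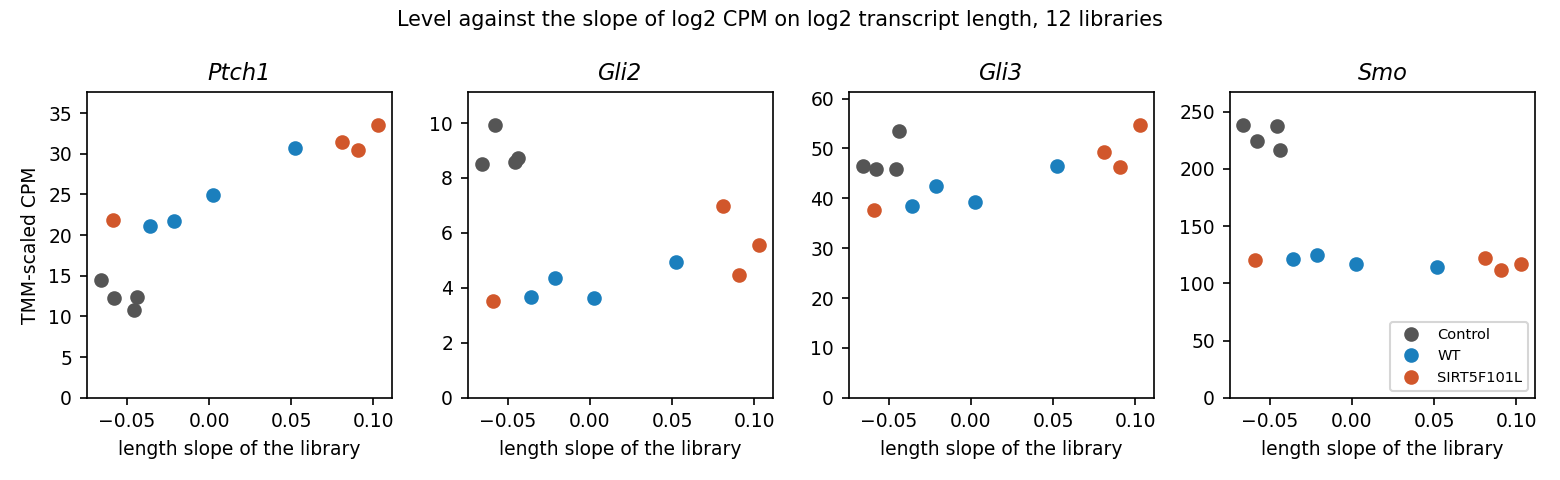
TMM-scaled CPM (vertical axis, from 0) of Ptch1, Gli2, Gli3 and Smo against the slope of that library's log2 CPM with log2 length of transcript, 12 libraries coloured by group. SIRT5F101L replicate 1, at a slope of -0.0588, lies among Control libraries on the horizontal axis and at 21.9 CPM of Ptch1.

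Genes whose profile over the 12 libraries was most like that of a member were found by the root mean square difference of log2 CPM, each gene centred on its mean. For Ptch1 these were Nbea, at 0.112, and Hipk1, at 0.127. Gli2 was nearest to Alms1 (0.147) and Ttc28 (0.154), and Pth1r to Ccdc152 (0.153) and Gstt1 (0.182). Hhip, with few counts, had its nearest neighbours farther off, Selp at 0.356 and Dyrk3 at 0.416. With most of the difference lying between Control and plasmid libraries, many genes share such a profile.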

How the data were processed

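The authors deposited 1 table of raw read counts by Ensembl gene ID for each library, with no header and no rows for unassigned reads. Per the labels' protocols, mRNA was captured on oligo-dT beads and read as 150 bp pairs. The submitters' processing notes name FastQC 0.11.9, HISAT2 2.2.1, HTSeq 2.0.2, DESeq2 1.38.3 and the build GRCm39, without roles. The annotation and strand setting are not given in the sources used here. Symbols came from a supplied table (52029 of 57010 IDs matched). Transcript lengths and exon overlaps came from GENCODE M21 and promoter windows from RefSeq, both on GRCm38. The promoter table listed 8 of the 9 members.

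The test was edgeR 4.0.16 (R 4.3.3): TMM, its default expression filter, a quasi-likelihood fit of 12 libraries with a mean per group and 9 residual degrees of freedom, Benjamini-Hochberg adjustment over 14253 genes and a threshold of 0.05, 2-sided. SEs are the log2 fold change divided by the square root of F. CPM values are TMM-scaled. Alternatives were RLE and upper-quartile scaling, other filters, a robust prior, 8-library fits, DESeq2 1.42.0, a length trend (loess, span 0.5) as offset, and leaving out each library. The pipeline was tested on simulated counts. BLAST 2.17.0 found copies of at least 95% identity for 8.97% of the Smo and 8.11% of the Gli1 transcript, and at most 1.93% of the others.

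Members and lists were chosen with earlier results of these data known. All 9 members are named. From each list the 2 called genes with the lowest adjusted p are named in each comparison, with others whose role a count needs. Profile neighbours are the 2 nearest genes of at least 5 CPM for members that changed at least 2-fold. The floor of 3 counts covers counting error only. Some results for genes of these lists are not reported here.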

Additional observations from a re-analysis of the deposited data

Results flagged for a closer look

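Of 63 sets of 4 libraries screened for a value far from the other 3 (gap to range above Dixon's 95% critical value), 4 had one, where chance gives about 3.15 (1 in 20). Gli2 was 9.94 CPM in Control replicate 2, against 8.52 to 8.74. Gli3 was 53.6 CPM in Control replicate 4, against 45.8 to 46.6. Ext1 was 235 CPM in WT replicate 1, against 206 to 208. Gnas was 21.7 CPM in SIRT5F101L replicate 1, against 20.2 to 20.4.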

How the results depend on the processing

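Each tested member was refitted under 20 alternatives per comparison, beside the combined one named last. Against Control, Ptch1, Hhip, Smo, Gli2 and Pth1r kept their direction and call in all of them, and Gli3 was called in 5 for WT and 1 for SIRT5F101L. Leaving out 1 library gave 5 to 6 called members for WT, 5 for SIRT5F101L and 0 to 2 between the plasmids. Gli3 in SIRT5F101L against Control ran from -0.108 to 0.0668 leaving out 1 library, turning its sign without Control replicate 4 (0.03) and without SIRT5F101L replicate 1 (0.0668). Smo between the plasmids ran from -0.0433 to 0.0012, turning without SIRT5F101L replicate 2. Genes called between the plasmids numbered 6 in the reported fit, 354 with no filter beyond 1 count, 2 with a robust prior, 22 with the length offset, 2 from the 8 libraries compared, 38 by DESeq2, 0 to 2213 leaving out 1 library (0 in 10 of 12 fits, 2213 without SIRT5F101L replicate 1), and 1187 with the length offset and without SIRT5F101L replicate 1, combined after seeing the data. The cause was not tested. With no filter, 2 PTH1R partners and 1 hypertrophic gene were called between the plasmids. Against Control, cilium genes called then went from 12 to 10 in WT and from 10 to 7 in SIRT5F101L. Genes of GLI processing went from 6 to 4 in WT, and other list counts changed less, in either direction. Scaled by total exon length, Control levels were 0.878 (Ptch1), 40.8 (Smo), 5.002 (Gli3) and 4.42 (Pth1r) CPM per kilobase. Other scalings moved the median of all genes by at most 0.0501. No paired analysis was possible because the labels number the samples in 1 run over all groups and the replicate numbers used here only follow that order. The Gnas fits that leave out a library were added after seeing the data. Ihh, Pthlh and Gli1 are limited by depth.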
